A study of Mus musculus with 12 samples.

Results

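Signals of 9 genes of the bone morphogenetic protein (BMP) pathway were followed across 6 groups of mouse pluripotent cells and embryonic tissue. The genes were chosen by name, with earlier results of these data known. They were the 4 Id genes (Id1, Id2, Id3 and Id4), the ligand Bmp4, the inhibitors Smad6 and Bambi, and the homeobox targets Msx1 and Msx2. Shares of them set against all genes are therefore descriptive. Each gene was read from the probe set annotated with its symbol alone. Such a probe set was found for 8 of the 9, out of 22180 genes measured in the same way. The probe sets that name Msx1 also name its antisense gene, so Msx1 was not analysed here.

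RNA was measured on 12 microarrays, 2 per group, as log2 signal, a scale on which 1 unit is a 2-fold difference. The rsEpiSC E6.5 and rsEpiSC E5.75 lines were pluripotent lines derived from the epiblast of embryonic day (E) 6.5 and E5.75, and both were grown with the tankyrase inhibitor IWR1 at 2.5 µM, which dampens Wnt signalling. Their medium also held a factor at 20 ng/ml whose name is missing from the labels. EpiSC, the conventional epiblast stem cells derived at E5.75, received 20 ng/ml of Activin A, 12 ng/ml of FGF2 and 20% serum replacement. Embryonic stem cells (ESC), derived at E3.5, received LIF, the GSK3 inhibitor CHIR99021 at 3 µM and the MEK inhibitor PD0325901 at 1 µM. The other groups were epiblast tissue dissected at E6.5 and at E5.75. All cultured lines shared N2B27 medium and a layer of mouse embryonic fibroblasts. ESC and EpiSC are labelled as carrying the OCT4-deltaPE-GFP reporter on a cross with C57BL/6; no strain was used here for the other groups. Nothing in the labels says whether the 2 arrays of a group came from separate cultures, lines or litters, so the p-values take in only the array-to-array spread, which may be technical. In bulk samples, fewer cells of a type and less RNA per cell cannot be told apart.

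BMP ligands bind paired type I and type II receptor kinases, which phosphorylate Smad1, Smad5 and Smad9. These enter the nucleus with Smad4 and activate target genes, of which the Id genes are among the most direct. Id proteins hold a helix-loop-helix but no DNA-binding region; they pair with E proteins such as Tcf3, Tcf4 and Tcf12 and keep them off DNA. In mouse ESC, BMP with LIF can sustain self-renewal through Id genes, and in the embryo Bmp4 from the extraembryonic ectoderm reaches the epiblast and helps to specify mesoderm and germ cells.

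Marker genes were read before the pathway genes. The mean signal of 7 naive pluripotency genes lay between 8.79 and 9.11 in ESC and between 3.93 and 4.69 on every other array. The mean of 6 post-implantation epiblast genes was 7.58 to 8.38 in rsEpiSC E6.5, 6.81 to 7.08 in rsEpiSC E5.75, 6.73 to 7.37 in EpiSC, 5.06 to 5.81 in ESC, 8.80 to 8.82 in epiblast E6.5 and 8.73 to 8.97 in epiblast E5.75. Pou5f1, a core pluripotency gene, had its lowest group mean in rsEpiSC E5.75, with arrays at 4.86 and 3.86, against 5.71 and 5.96 in EpiSC. The value of 3.86 lay below the median of all deposited values, 4.21. Other core genes were mixed: the mean of Nanog was 5.32 in rsEpiSC E5.75 against 8.79 in EpiSC, and that of Sox2 was 10.12 against 6.86. Replicate arrays correlated over all genes at 0.943 in epiblast E5.75 to 0.988 in rsEpiSC E6.5. The 2 ESC arrays stood apart from each other in the pathway genes: Id1, Id2, Id3 and Bmp4, 4 of the 8 genes, differed by more than 1 log2 unit between them, against 7.78% of all genes. The first ESC array was the higher in all 4.

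Promoter windows are shown for the Id genes that have one in the RefSeq table (mouse build GRCm38.p6), because Id genes are direct Smad targets and make up 4 of the 9 genes. Each window holds the 250 bases before the gene start, 5′ to 3′ on the gene's strand. Capitals mark GGCGCC, a GC-rich site of the kind bound by Smad1 and Smad5, and CAGAC or its reverse complement GTCTG, a Smad4 site. The Id2 window is chr12:25096093-25096342 on the minus strand, the Id3 window chr4:136143572-136143821 on the plus strand, and the Id4 window chr13:48260866-48261115 on the plus strand.
Id2: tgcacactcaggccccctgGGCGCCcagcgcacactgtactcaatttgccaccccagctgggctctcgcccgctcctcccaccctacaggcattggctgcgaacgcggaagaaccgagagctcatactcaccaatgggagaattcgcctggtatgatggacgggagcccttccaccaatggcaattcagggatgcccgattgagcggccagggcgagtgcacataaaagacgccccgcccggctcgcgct
Id3: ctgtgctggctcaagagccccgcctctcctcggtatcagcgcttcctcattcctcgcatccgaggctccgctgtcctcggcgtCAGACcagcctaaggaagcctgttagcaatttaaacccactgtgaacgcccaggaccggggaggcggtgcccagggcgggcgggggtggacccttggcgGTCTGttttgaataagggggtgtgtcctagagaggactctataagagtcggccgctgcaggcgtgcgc
Id4: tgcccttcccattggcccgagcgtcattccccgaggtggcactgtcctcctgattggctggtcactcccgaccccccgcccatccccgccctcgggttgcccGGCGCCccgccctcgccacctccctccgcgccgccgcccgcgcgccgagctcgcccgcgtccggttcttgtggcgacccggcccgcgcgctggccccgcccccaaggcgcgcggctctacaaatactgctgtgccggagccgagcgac
The Id2 and Id4 windows held 1 GGCGCC each and no CAGAC, and the Id3 window held 2 CAGAC sites and no GGCGCC. The GC content was 62.8% in Id2 and Id3 and 75.6% in Id4. Among all 32851 RefSeq windows, GGCGCC was present in 9.59% and CAGAC on either strand in 42.2%. GGCGCC reads the same on both strands, and the motifs do not overlap each other. The windows of Bmp4, Smad6, Msx1 and Msx2 held neither motif, and Id1 and Bambi had no entry. A match describes these letters and is not evidence that a factor binds.

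Id3, the gene with the widest spread of group means in the family, had a log2 signal of 8.06 and 8.96 in rsEpiSC E6.5, 8.81 and 8.82 in rsEpiSC E5.75, 4.49 and 6.52 in EpiSC, 6.81 and 4.23 in ESC, 6.53 and 6.58 in epiblast E6.5, and 6.11 and 7.42 in epiblast E5.75. All 4 rsEpiSC arrays stood above all 8 others, which 2.86% of all genes did; no other of the 8 genes did so. Id3 was also the most variable of the genes between replicates, by 2.03 in EpiSC and by 2.57 in ESC. In the order of group means, rsEpiSC E6.5 exceeded the next group, epiblast E5.75, by 1.74, more than the residual SD of 1.05, and no other neighbours differed by more than that SD.

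Id1 had a log2 signal of 5.89 and 6.56 in rsEpiSC E6.5, 6.50 and 6.57 in rsEpiSC E5.75, 4.26 and 4.60 in EpiSC, 6.26 and 5.11 in ESC, 4.64 and 4.60 in epiblast E6.5, and 4.32 and 5.34 in epiblast E5.75. The rsEpiSC arrays were above both EpiSC arrays and all 4 tissue arrays, and overlapped the higher ESC array. The ESC arrays spanned 1.15 log2 units. In the order of means, ESC lay between the rsEpiSC groups and the tissue and overlapped its neighbours on both sides. Id1 signals in EpiSC, in epiblast E6.5 and on the first epiblast E5.75 array, 4.26 to 4.64, lay near the median of all deposited values, 4.21. No detection call was given, so the size of the Id1 differences against these groups is uncertain.

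Id2 ordered the groups much as Id1 did, with the rsEpiSC groups highest and EpiSC lowest. It had 7.73 and 8.09 in rsEpiSC E6.5, 8.07 and 7.86 in rsEpiSC E5.75, 6.47 and 5.95 in EpiSC, 7.84 and 6.64 in ESC, 6.93 and 6.28 in epiblast E6.5, and 7.26 and 6.61 in epiblast E5.75. Both EpiSC arrays lay below every array of the rsEpiSC groups and of ESC. No pair of neighbouring groups in its order of means was separated without overlap.

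Id4 followed another order, with its highest values in ESC and its lowest in epiblast E5.75. It had 4.99 and 4.94 in rsEpiSC E6.5, 4.81 and 5.02 in rsEpiSC E5.75, 5.34 and 4.85 in EpiSC, 5.49 and 5.55 in ESC, 5.40 and 5.11 in epiblast E6.5, and 4.42 and 4.20 in epiblast E5.75. Both ESC arrays were above all 10 others, as were those of 5.02% of all genes. Both epiblast E5.75 arrays were below all others, and the share of all genes that did the same was not counted. The epiblast E5.75 signals lay near the median of all deposited values, 4.21, so whether they stood above background is not known.

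Msx2, a homeobox gene induced by BMP in many tissues, varied little. Its 12 values ran between 4.20 and 5.07, and no comparison of 2 groups passed the test. The median of all deposited values was 4.21 and no detection call was given, so whether Msx2 stood above background is not known. The signals in rsEpiSC E6.5 were 4.20 and 4.20, against 4.95 and 4.80 in epiblast E6.5, a difference of -0.67 ± 0.26 (SE) with an adjusted p of 0.115 and a 95% interval of -1.25 to -0.10.

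Bmp4, the ligand among the 9 genes, had 5.56 and 7.24 in rsEpiSC E6.5, 7.48 and 6.80 in rsEpiSC E5.75, 6.67 and 6.42 in EpiSC, 7.43 and 5.74 in ESC, 5.57 and 6.18 in epiblast E6.5, and 4.69 and 5.28 in epiblast E5.75. Both epiblast E5.75 arrays were below every other array, as for Id4, and the share of all genes that did the same was not counted. The replicates differed by 1.68 in rsEpiSC E6.5 and by 1.69 in ESC, and each of these groups overlapped every other group except epiblast E5.75.

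Smad6, an inhibitory Smad that is itself induced by BMP, had group means from 4.42 in epiblast E6.5 to 4.58 in rsEpiSC E5.75, and no comparison passed. The 95% intervals of its pairwise differences reached at most 0.81 log2 units in either direction, so a difference within that size is not excluded. Its ESC arrays, at 4.98 and 4.11, bounded all 12. As for Msx2, whether these signals stood above background is not known.

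Bambi, a pseudoreceptor that lacks a kinase and dampens BMP and TGF-beta signalling, had 5.86 and 5.74 in rsEpiSC E6.5, 6.03 and 6.23 in rsEpiSC E5.75, 5.91 and 6.14 in EpiSC, 5.35 and 5.40 in ESC, 5.69 and 5.62 in epiblast E6.5, and 6.60 and 6.20 in epiblast E5.75. Both ESC arrays were below all 10 others, as were those of 4.56% of all genes. The replicate arrays were close in every group, with a residual SD of 0.15.

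**Figure D1:**
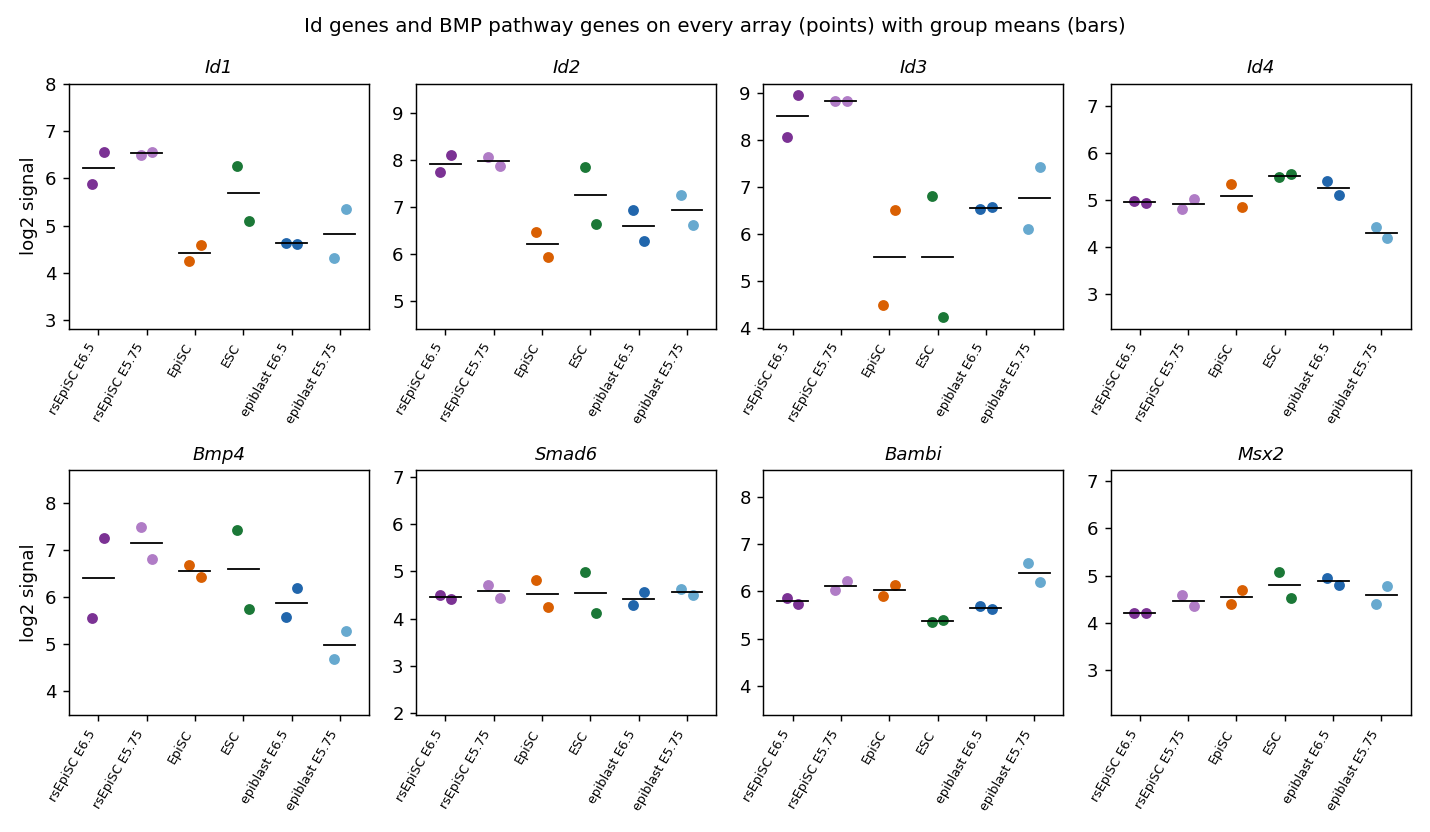
Log2 signal (vertical axis) of the 8 measured genes on every array (points) with the mean of each group (bar), the rsEpiSC groups on the left and epiblast tissue on the right. Id3 lies between 8.06 and 8.96 on all 4 rsEpiSC arrays and at 7.42 or lower elsewhere, while Id4 is highest in ESC and Bambi lowest there.

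Each comparison of groups was fitted with limma on all 12 arrays, and a gene passed where its p, adjusted by the method of Benjamini and Hochberg over all 22180 genes, was under 0.05. Comparisons share groups and are therefore not independent of each other. Of the 8 genes, 6 passed in at least 1 of the 11 pairwise comparisons, as did 42.3% of all genes.

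The comparison of rsEpiSC with EpiSC sets 2 kinds of post-implantation line against each other. They differ in medium and, for rsEpiSC E6.5, in the embryonic day of origin. They may also differ in reporter and strain, which were used here for EpiSC but not for rsEpiSC. The parts of these factors cannot be told apart. Id1 and Id2 rose in rsEpiSC from both stages, and Id3 rose in rsEpiSC E5.75. In rsEpiSC E5.75 against EpiSC, 3 of the 8 genes rose and none fell, where 3.87% of all genes passed in either direction and 1.56% rose. Id1 was higher by 2.11 ± 0.42 (SE), 4.31-fold, with an adjusted p of 0.014. That size is uncertain, because the EpiSC signals of Id1 lay near the median of all deposited values. Id2 was higher by 1.76 ± 0.41 (SE), with an adjusted p of 0.0315. Id3 was higher by 3.31 ± 0.78 (SE), 9.91-fold, with an adjusted p of 0.0347. In each case both rsEpiSC E5.75 arrays were above both EpiSC arrays. The same held for Bmp4, which was higher by 0.60 and did not pass (adjusted p 0.832).

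In rsEpiSC E6.5 against EpiSC, 2 of the 8 genes rose, where 3.89% of all genes passed and 1.33% rose. Id1 was higher by 1.80 ± 0.42 (SE, adjusted p 0.0337) and Id2 by 1.71 ± 0.41 (SE, adjusted p 0.0375). Id3 was higher by 3.00, with a 95% interval of 1.31 to 4.69, and its adjusted p of 0.0548 did not pass; it passed with array weights (0.00816) and with a filter on dim genes (0.0434). Id4, Bmp4, Smad6, Bambi and Msx2 passed in neither of these comparisons.

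These calls rest on few arrays. Id3 in rsEpiSC E5.75 was higher by 2.30 without the first EpiSC array (adjusted p 0.31). It also lost its call without either rsEpiSC E5.75 array (adjusted p 0.193 and 0.185) or either epiblast E6.5 array (0.0637 in both fits), and in the fit to cultured arrays alone (0.0702). Id3 in rsEpiSC E6.5 passed when either ESC array was left out (adjusted p 0.0147 and 0.0145), which takes the widest replicate gap of the gene out of the shared error. It passed too without the second EpiSC array, at 4.02 (adjusted p 0.0271).

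Id1 in rsEpiSC E5.75 lost its call without the first EpiSC array (adjusted p 0.119) or either array of its own group (0.0965 and 0.11). Id1 in rsEpiSC E6.5 lost it without either of its own arrays (0.0752 and 0.318), either EpiSC array (0.236 and 0.0756), either rsEpiSC E5.75 array (0.057 and 0.0571) or either epiblast E6.5 array (0.0574 and 0.0573). Id2 in rsEpiSC E5.75 lost it without either array of its own group (0.233 and 0.147), either EpiSC array (0.081 and 0.175) or either rsEpiSC E6.5 array (0.0515 and 0.0516). Id2 in rsEpiSC E6.5 lost it without either of its own arrays (0.137 and 0.301), either EpiSC array (0.1 and 0.176), either rsEpiSC E5.75 array (0.0649 and 0.0647) or the first epiblast E6.5 array (0.0503). In these fits the differences of Id1 lay between 1.46 and 2.14 and those of Id2 between 1.44 and 2.02.

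Fibroblast markers were lower in rsEpiSC by their mean, but mixed by gene. The mean signal of 15 fibroblast genes was 4.47 to 4.57 in rsEpiSC E6.5, 4.98 to 5.09 in rsEpiSC E5.75 and 5.20 to 5.51 in EpiSC. Of the 15, 3 fell in rsEpiSC E6.5 and 2 in rsEpiSC E5.75, Tagln in both, and 0 rose. Mmp2 had means of 7.95 in rsEpiSC E6.5 and 8.30 in rsEpiSC E5.75, against 7.24 in EpiSC. Pdgfra had 4.22 and 5.08, against 3.82. These higher values did not pass. The mean of 11 extraembryonic ectoderm genes was 4.22 to 4.45 in rsEpiSC E6.5, 4.32 to 4.37 in rsEpiSC E5.75 and 4.85 to 5.07 in EpiSC. The part of these cell types in the Id differences was not tested.

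Against ESC, Id3 alone passed in both rsEpiSC groups. It was higher by 2.99 ± 0.78 (SE, adjusted p 0.0314) in rsEpiSC E6.5 against ESC, 1 of the 8 genes, where 8.96% of all genes passed and 4.41% rose. In rsEpiSC E5.75 against ESC it was higher by 3.29 ± 0.78 (SE, adjusted p 0.0173), again 1 of the 8, where 10.3% of all genes passed and 5.49% rose. In both, the rsEpiSC arrays were above both ESC arrays. Without the second ESC array, which was the lower, the difference was 1.70 in rsEpiSC E6.5 (adjusted p 0.257) and 2.01 in rsEpiSC E5.75 (adjusted p 0.141). The call in rsEpiSC E5.75 was also lost without either array of that group (adjusted p 0.103 and 0.1). That in rsEpiSC E6.5 was lost without either of its own arrays (0.0815 and 0.235), either rsEpiSC E5.75 array (0.0509 and 0.051) or either epiblast E6.5 array (0.0549 in both fits). Of the 15 fibroblast genes, whose mean was 4.05 to 4.25 in ESC, 5 rose in rsEpiSC E5.75 against ESC, and the part of fibroblast RNA in the Id3 difference was not tested. Id1 was higher in rsEpiSC E5.75 by 0.85 (95% interval -0.05 to 1.76, adjusted p 0.282), and in rsEpiSC E6.5 by 0.54 (95% interval -0.36 to 1.45).

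EpiSC against ESC gave 0 of the 8 genes, where 6.29% of all genes passed. By limma's unadjusted p, 3 were under 0.05: Id1 at -1.25 (adjusted p 0.116), Id2 at -1.04 (adjusted p 0.196) and Bambi at 0.65 (adjusted p 0.191). The share of all genes under this unadjusted threshold was not counted, so these 3 are given only as a description. Id3 had a mean of 5.51 in EpiSC and 5.52 in ESC, a difference with a 95% interval of -1.71 to 1.68, which leaves wide room in either direction. Without the second ESC array, 2 of the 8 genes passed.

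The cultured lines were next set against tissue. In these comparisons the median of all genes was -0.10 to -0.19, so that a value near it is no shift of a gene of its own. The deposited values also spread less on the tissue arrays: the interquartile range over all genes was 3.07 to 3.31 on the arrays of the lines, against 2.58 to 2.68 in epiblast E6.5 and 2.23 to 2.57 in epiblast E5.75. The part of this narrower spread in the line-against-tissue differences, and in the share of genes that passed, was not tested beyond quantile normalization, which lost the Id1 call in rsEpiSC E6.5 against epiblast E6.5 (adjusted p 0.0609). In rsEpiSC E5.75 against epiblast E5.75, 2 of the 8 genes rose, where 21.5% of all genes passed and 11.5% rose. Id1 was higher by 1.71 ± 0.42 (SE), 3.26-fold, with an adjusted p of 0.0143. Bmp4 was higher by 2.15 ± 0.58 (SE), 4.45-fold, with an adjusted p of 0.0228. Id2 was higher by 1.03 (adjusted p 0.0881) and Id3 by 2.05 (adjusted p 0.0787); neither passed.

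In rsEpiSC E6.5 against epiblast E6.5, 1 of the 8 genes rose, where 12.5% of all genes passed and 6.72% rose. Id1 was higher by 1.60 ± 0.42 (SE), with an adjusted p of 0.0279. Id2 was higher by 1.31 ± 0.41 (SE, adjusted p 0.0545) and Id3 by 1.95 ± 0.78 (SE, adjusted p 0.12), with both arrays of rsEpiSC E6.5 above both of the tissue. Bmp4 did not pass here, at 0.53 (95% interval -0.75 to 1.80).

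Both Id1 calls and the Bmp4 call were lost in some fits with an array left out. Id1 against epiblast E5.75 lost its call without either rsEpiSC E5.75 array (adjusted p 0.074 and 0.082) or the first epiblast E5.75 array, where it was higher by 1.19 (0.105). Bmp4 lost its call without the first or second rsEpiSC E5.75 array (differences of 1.81 and 2.50, adjusted p 0.15 and 0.0626) or the first epiblast E5.75 array (1.86, adjusted p 0.12). Id1 against epiblast E6.5 lost its call without either rsEpiSC E6.5 array (adjusted p 0.065 and 0.215) or either epiblast E6.5 array (0.0982 and 0.0993).

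Markers of other cell types also differed between lines and tissue. The mean of the fibroblast genes was 4.32 to 4.33 in epiblast E6.5 and 4.46 in epiblast E5.75; 5 of 15 rose and 1 fell in rsEpiSC E5.75, and 1 rose and 1 fell in rsEpiSC E6.5. The mean of the extraembryonic ectoderm genes, markers of the tissue that supplies Bmp4 in the embryo, was 5.15 to 5.59 in ESC, 5.03 to 5.18 in epiblast E6.5 and 4.97 to 5.03 in epiblast E5.75, and against tissue 0 of 11 rose in either rsEpiSC group, while 4 fell in rsEpiSC E6.5 (Elf5, Eomes, Tfap2c and Krt7) and 3 in rsEpiSC E5.75 (Eomes, Krt7 and Plet1). The mean of 11 primitive streak and mesoderm genes was 4.07 to 4.36 over the lines, against 5.23 to 5.29 in epiblast E6.5 and 4.60 to 4.76 in epiblast E5.75. The mean of 12 visceral endoderm genes ran from 4.14 to 4.58 over all arrays. The part of these cells in the differences of Id1 and Bmp4 was not tested.

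EpiSC against epiblast E5.75 gave 1 of the 8 genes, where 24% of all genes passed and 12.6% rose: Id4 rose by 0.78 ± 0.26 (SE, adjusted p 0.043). ESC against epiblast E5.75 gave 2 of the 8, where 21.5% of all genes passed, 10.8% upwards and 10.6% downwards. Id4 rose by 1.20 ± 0.26 (SE, adjusted p 0.00676), 2.30-fold, and Bambi fell by 1.02 ± 0.25 (SE, adjusted p 0.0142). Of the 13 calls made for these genes over all comparisons, Id4 in ESC was the 1 that held in each of the 12 fits without an array. Id4 in EpiSC lost its call without the first EpiSC array, at 0.54 (adjusted p 0.253), or without either epiblast E5.75 array (0.0673 and 0.12), either rsEpiSC E5.75 array (0.0627 and 0.0624) or either rsEpiSC E6.5 array (0.0687 and 0.0689). Bambi lost it without the first ESC array (adjusted p 0.054) or the first epiblast E5.75 array (-0.83, adjusted p 0.0714). Bmp4 was higher by 1.56 in EpiSC (adjusted p 0.0716) and by 1.60 in ESC (adjusted p 0.0699), which did not pass.

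Between stages, 0 of the 8 genes passed in rsEpiSC E6.5 against rsEpiSC E5.75, where 0.0857% of all genes did. In epiblast E6.5 against epiblast E5.75, 0 of the 8 passed, where 0.0225% of all genes did. By limma's unadjusted p, 0 of the 8 were under 0.05 between the rsEpiSC stages, and 2 between the epiblast stages. Those were Id4, higher by 0.94 ± 0.26 (SE, adjusted p 0.188), and Bambi, at -0.74 ± 0.25 (SE, adjusted p 0.271). The groups did not overlap in either gene, nor did they in Bmp4 (unadjusted p 0.155) or Msx2 (unadjusted p 0.302). The share of all genes without overlap between these groups of 2 arrays was not counted, so no result about the 8 genes is drawn from it. The stage difference in rsEpiSC minus that in epiblast gave 0 of the 8, where 0.00902% of all genes passed, and 1 of them had an unadjusted p under 0.05. That was Id4, at -0.89 (adjusted p 0.531, 95% interval -1.68 to -0.11). The shares of all genes with an unadjusted p under 0.05 were not counted in these comparisons, so the unadjusted counts are only a description.

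**Figure D2:**
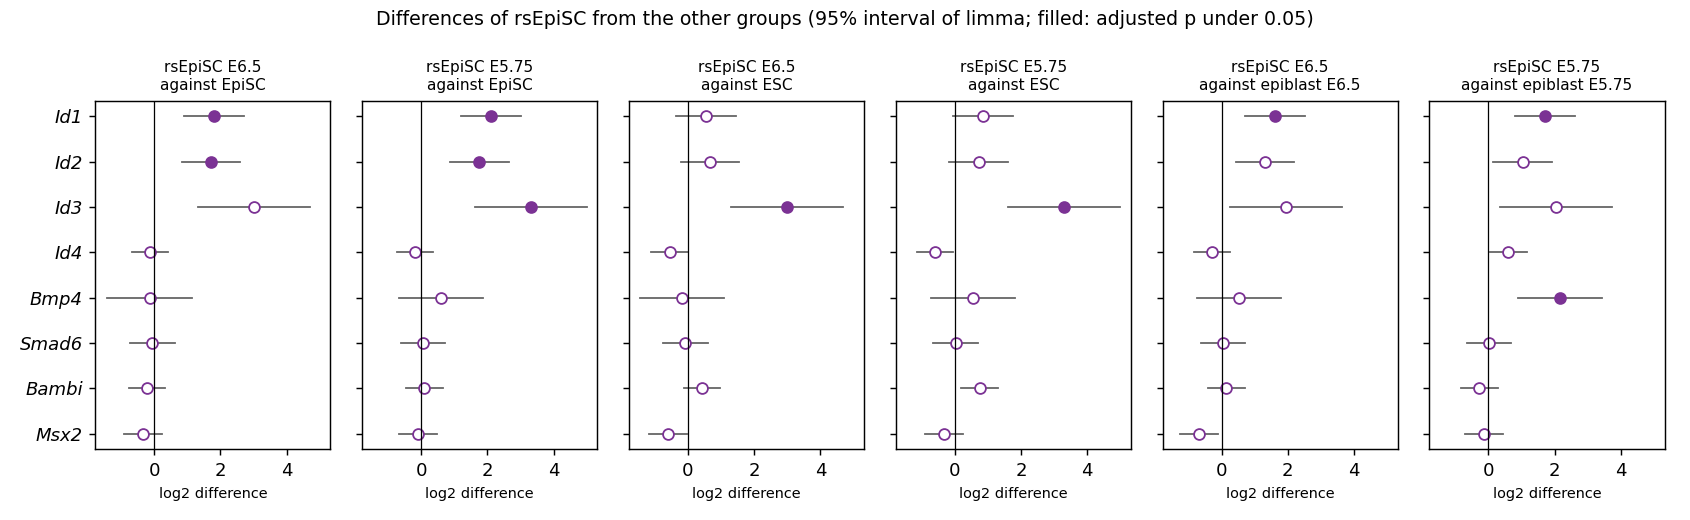
Log2 differences (horizontal axis) of the 8 genes in the 6 comparisons of rsEpiSC with EpiSC, ESC and tissue, with 95% intervals (lines) and filled points for those that passed at an adjusted p under 0.05. Id1, Id2 and Id3 lie to the right of 0 against EpiSC in both rsEpiSC groups, while the intervals of Smad6 span 0 in all 6 panels.

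Across the 12 arrays Id1, Id2 and Id3 followed each other. Pearson's r was 0.84 for Id1 and Id2, 0.78 for Id1 and Id3, and 0.70 for Id2 and Id3, as a description over 12 arrays that share groups, platform and normalization. Id1 and Id4 had an r of 0.00, and Id4 and Bambi had -0.81. Id1 and Bmp4 had 0.62.

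**Figure D3:**
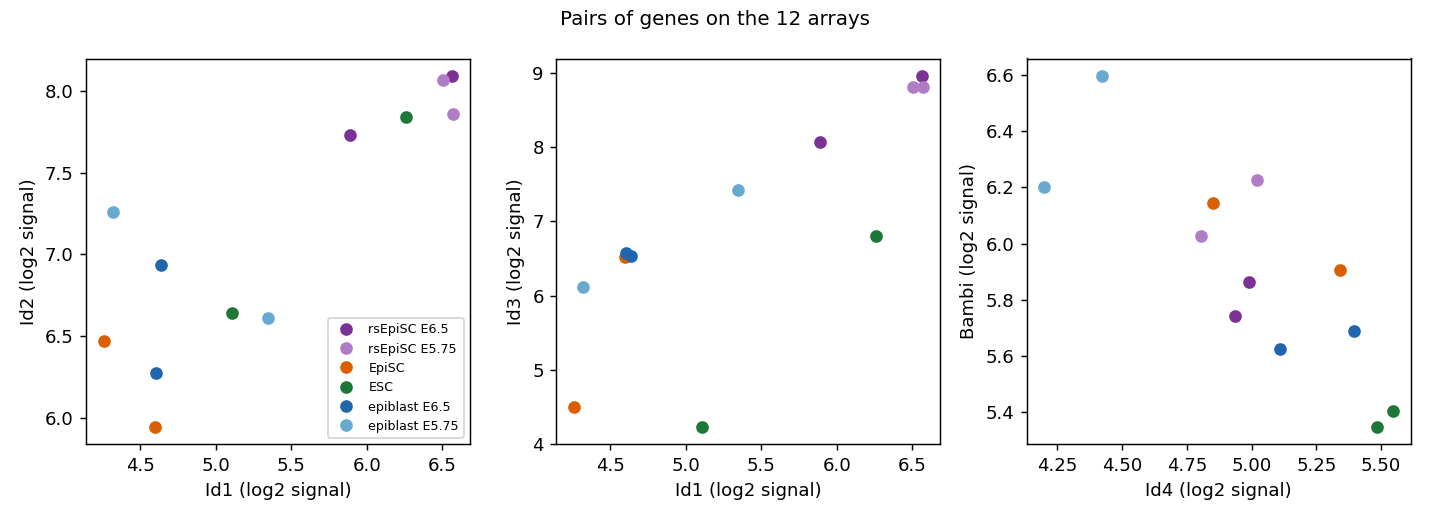
Log2 signal of Id2 and of Id3 against Id1, and of Bambi against Id4, on the 12 arrays, with 1 point per array coloured by group. Id1 and Id2 rise together (r = 0.84), and Id4 and Bambi run opposite to each other (r = -0.81).

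The genes whose signal was most like that of a member over the 12 arrays were taken from all genes with a single symbol. They were Clic4 (r = 0.938) and Dnmt1 (0.933) for Id1, Rnf225 (0.934) and Fhit (0.884) for Id2, and Plxna3 (0.96) and Marcksl1 (0.955) for Id3. Id4 was closest to Vps13c (0.893) and Dennd1a (0.873), and Bmp4 to Rcan1 (0.893) and Ncam1 (0.889). Smad6 was closest to Taar5 (0.86) and Bdkrb1 (0.828), Bambi to Fam166c (0.886) and Cd274 (0.852), and Msx2 to Ada (0.918) and Cilp2 (0.918). These are the highest of many correlations searched and are given as a description of likeness in profile.

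The wider pathway was read from 68 listed genes, of which 64 were measured, the 8 above among them. This list, too, was chosen with earlier results of these data known. In rsEpiSC E5.75 against EpiSC 4 rose and 3 fell, 10.9% of the 64, where 3.87% of all genes passed; the median difference was 0.11, against 0.02 for all genes. In rsEpiSC E6.5 against EpiSC 2 rose and 3 fell, 7.81% of the 64, where 3.89% of all genes passed. Beside the Id genes, Chrdl1 rose in rsEpiSC E5.75, and Skil, Smad7 and Pmepa1 fell in both groups. Against ESC, 9 rose and 6 fell in rsEpiSC E5.75 (23.4%, where 10.3% of all genes passed) and 6 rose and 7 fell in rsEpiSC E6.5 (20.3%, where 8.96% did). Against tissue of the same stage, 11 rose and 2 fell in rsEpiSC E5.75 (20.3%), near the 21.5% of all genes, and 4 rose and 2 fell in rsEpiSC E6.5 (9.38%), below the 12.5% of all genes. The counts by role that follow are small and stand against these same shares of all genes. Between stages 0 of the 64 passed in either setting, and 0 in the difference between the settings.

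Among ligands, 0 of 13 passed in either rsEpiSC group against EpiSC or against ESC. Bmp7, a ligand that can pair with Bmp4, rose in rsEpiSC E5.75, EpiSC and ESC against epiblast E5.75. It had 6.65 and 6.87 in rsEpiSC E5.75, 7.02 and 6.39 in EpiSC and 6.32 and 6.96 in ESC, against 5.08 and 5.07 in epiblast E5.75. It was higher by 1.69 in rsEpiSC E5.75 (adjusted p 0.00337), by 1.63 in EpiSC (adjusted p 0.00337) and by 1.57 in ESC (adjusted p 0.00452). These calls held in all 12 fits without an array.

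Among the 9 receptors and co-receptors measured, 0 passed in rsEpiSC against EpiSC in either group. Rgmb, a membrane-anchored BMP co-receptor, had 6.66 and 7.03 in rsEpiSC E5.75, against 4.85 and 4.52 in epiblast E5.75, higher by 2.17 (adjusted p 0.000499), a call that held in all 12 fits without an array. Rgmb also rose in rsEpiSC E6.5 against epiblast E6.5, and in EpiSC and ESC against epiblast E5.75 (by 0.97 in ESC, adjusted p 0.0303). Acvr2b is a type II receptor for Activin and BMP. Against tissue of the same stage, Acvr2b was higher by 1.12 in rsEpiSC E5.75 (adjusted p 0.0249) and by 1.21 in rsEpiSC E6.5 (adjusted p 0.0263). Both calls were lost without either rsEpiSC array or the first tissue array, and that of rsEpiSC E6.5 also without the second, with adjusted p-values of 0.0724 to 0.168. Of the 4 Smads that carry the signal, none passed in the comparisons with EpiSC, and Smad5 rose in rsEpiSC E5.75 against epiblast E5.75 by 0.87 (adjusted p 0.0384), a call kept in 7 of the 12 fits without an array.

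Secreted antagonists bind BMP outside the cell, and 1 of 12 passed in rsEpiSC E5.75 against EpiSC. Chrdl1, a chordin-like antagonist, had 4.53 and 4.56 in rsEpiSC E5.75, against 2.51 and 2.81 in EpiSC, higher by 1.89 (adjusted p 0.00791). Its EpiSC signals lay below the median of all deposited values, 4.21, and the files give no detection call, so whether they stood above background is not known and the size of the difference is uncertain. The call was lost without the first EpiSC array or either rsEpiSC E5.75 array, with adjusted p-values of 0.0666 to 0.0839. In rsEpiSC E6.5 it had 3.68 and 3.91 and did not pass against EpiSC.

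Membrane or intracellular inhibitors act on receptors or Smads. Of 9 measured, 3 fell and 0 rose in each rsEpiSC group against EpiSC, where 3.89% of all genes passed in rsEpiSC E6.5 and 3.87% in rsEpiSC E5.75. Skil, a co-repressor of Smads, had 5.35 and 5.42 in rsEpiSC E6.5 and 5.51 and 4.88 in rsEpiSC E5.75, against 7.98 and 7.41 in EpiSC. Its differences were -2.31 (adjusted p 0.00118) and -2.50 (adjusted p 0.000606), and both held in all 12 fits without an array. Smad7, an inhibitory Smad, had 5.18 and 5.16 in rsEpiSC E6.5 and 5.84 and 4.93 in rsEpiSC E5.75, against 7.18 and 7.20 in EpiSC. Those differences were -2.02 (adjusted p 0.00507) and -1.80 (adjusted p 0.00948), and kept their call in 11 and 9 of the 12 fits without an array. Pmepa1, a transmembrane regulator of TGF-beta signalling, fell by 1.52 in rsEpiSC E6.5 (adjusted p 0.0229) and by 1.58 in rsEpiSC E5.75 (adjusted p 0.0179). Without the second EpiSC array its differences were -0.99 and -1.04, and both calls were lost, as they were without either array of the rsEpiSC group in question. Skil, Smad7 and Pmepa1 are also known as targets of Activin and TGF-beta signalling.

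Of the 14 target genes measured, 2 rose in rsEpiSC E6.5 against EpiSC and 3 in rsEpiSC E5.75, all of them Id genes, and 0 fell. The median difference of the targets was 0.01 and 0, against 0.02 for all genes. In rsEpiSC E6.5 against ESC 1 target rose and 2 fell, and in rsEpiSC E5.75 against ESC 2 rose and 2 fell. Those that fell were Tbx3 and Gata2 in both. Of the 3 E proteins measured, 0 passed in rsEpiSC against EpiSC. Against ESC, Tcf3, Tcf12 and Tcf4 all rose in rsEpiSC E5.75, and Tcf12 and Tcf3 rose in rsEpiSC E6.5. Tcf3 had 8.86 and 8.38 in rsEpiSC E6.5 and 8.61 and 8.67 in rsEpiSC E5.75, against 7.30 and 7.30 in epiblast E6.5 and 6.87 and 7.26 in epiblast E5.75. It rose by 1.32 (adjusted p 0.0102) and by 1.57 (adjusted p 0.00259) against tissue of the same stage. The first call was lost without the first rsEpiSC E6.5 array, at 1.08 (adjusted p 0.116), and the second held in all 12 fits.

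**Figure D4:**
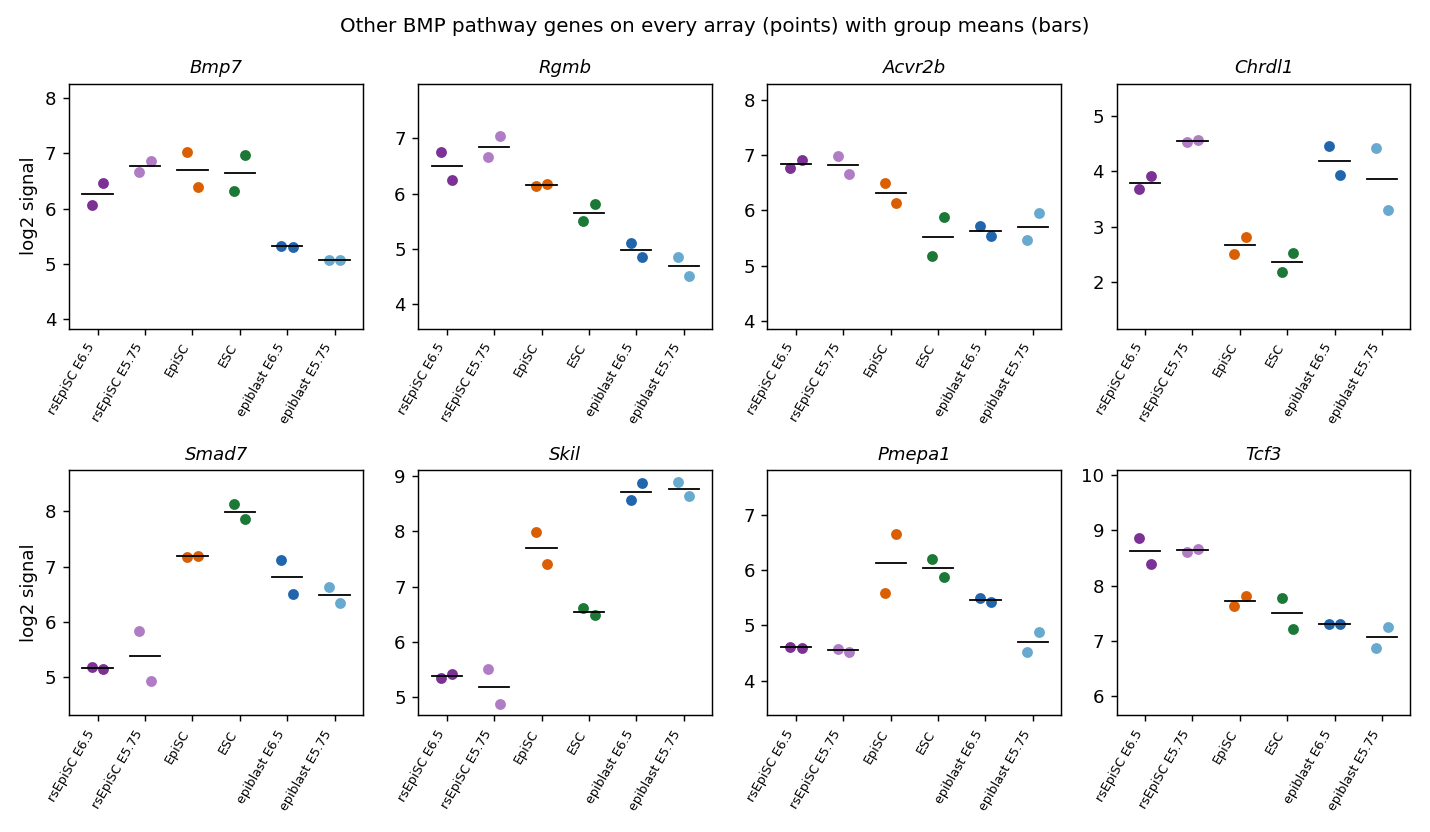
Log2 signal (vertical axis) of 8 other pathway genes on every array (points) with group means (bars). Skil and Smad7 are lower on all 4 rsEpiSC arrays than on both EpiSC arrays, and Bmp7 is lowest in tissue.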

How the data were processed

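Log2 signals of 12 arrays were deposited by the authors as 1 table of 41345 probe sets, and the submitters' processing notes name the R package oligo and the method RMA, without versions. The deposited arrays do not share 1 distribution: the interquartile range over all genes ran from 2.23 to 3.31, and the values were used as they are. The labels' protocol names a human array, but the probe set identifiers match the supplied mouse annotation. Of the probe sets, 23521 carried 1 gene symbol, 1814 several and 16010 none. The probe set with the highest mean was kept for the 1082 genes with several, leaving 22180 genes, with no filter on low signal. Symbols were checked against a RefSeq table of GRCm38.p6, where 124 of 124 genes named or listed here matched. The number of arrays limits the precision.

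Differences were tested two-sided with limma 3.58.1 in R 4.3.3 (lmFit on 6 group means, eBayes with a trend, 6 residual degrees of freedom), and p-values were adjusted over all genes in each of 12 comparisons by the method of Benjamini and Hochberg. The fit was tested on simulated data. Alternatives were the replicate number as a block, each array left out in turn, only the arrays compared, only cultured or only tissue arrays, quantile normalization, median centring, array weights, no trend, a filter on dim genes, the mean of probe sets, and every probe set tested. In the fits that left out an array, the lone array of its group was assumed to vary like the others.

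The 9 genes, the pathway list and the marker lists (naive pluripotency, post-implantation epiblast, extraembryonic ectoderm, visceral endoderm, fibroblast, primitive streak) were chosen with earlier results of these data known. Tbx3 is in both the pathway and the naive list, and Eomes in 2 marker lists. Gata3, Hand1 and Tfap2a are in both the pathway list and the extraembryonic ectoderm list. Named beyond the 9 genes were, per role and comparison, up to 3 pathway genes that passed by size of difference, and for each gene the 2 genes most correlated with it, leaving out predicted genes and small RNAs. Promoter windows were searched with Python 3.11.15.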

Additional observations from a re-analysis of the deposited data

How the results depend on the processing

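No result of the 8 genes reversed its direction past the threshold under any alternative run. Of the 13 calls, 1 held in every fit without an array (Id4 in ESC against epiblast E5.75) and 1 under every other alternative (Id1 in rsEpiSC E5.75 against epiblast E5.75). Testing every probe set lost 10 of the 13, and using only the arrays compared lost 5; the cause was not tested, here or for the other settings. In rsEpiSC E6.5 against EpiSC 2 genes passed, with 1 under quantile normalization, 0 under median centring, 3 each under array weights and the dim filter (Id3 added), 0 over every probe set and 0 to 3 without an array. In rsEpiSC E5.75 against EpiSC 3 passed, with 2 for only cultured arrays (Id3 lost), 0 over every probe set and 0 to 3 without an array. In EpiSC against ESC 0 passed, with 0 to 2 without an array. In rsEpiSC E6.5 against ESC 1 passed, with 0 for only the arrays compared, only cultured arrays and every probe set, and 0 to 1 without an array; in rsEpiSC E5.75 against ESC 1 passed, with 0 for only the arrays compared and every probe set, and 0 to 1 without an array. In rsEpiSC E6.5 against epiblast E6.5 1 passed, with 2 under the replicate block, 3 for only the arrays compared, 0 under quantile normalization, 2 each under median centring, array weights and the dim filter, 0 over every probe set and 0 to 3 without an array. In rsEpiSC E5.75 against epiblast E5.75 2 passed, with 3 for only the arrays compared (Id3 added, adjusted p 0.0246), 3 under median centring (Id4 added, 0.0462), 1 under array weights, 1 over every probe set and 0 to 4 without an array. In EpiSC against epiblast E5.75 1 passed, with 0 under array weights, 0 over every probe set and 0 to 2 without an array; with only the arrays compared it was Bmp4 (adjusted p 0.0368) in place of Id4 (0.141). In ESC against epiblast E5.75 2 passed, with 0 for only the arrays compared, 1 under array weights and 1 to 3 without an array.

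The labels do not say whether the replicate number pairs the samples. Same-numbered arrays deviated from their group means with a correlation of -0.26 for EpiSC with ESC. The other pairs of groups lay between -0.042 and 0.058. Such correlations cannot decide whether samples were paired. With the replicate number as a block, Id2 in rsEpiSC E6.5 against epiblast E6.5 passed (adjusted p 0.035), and the block changed no other call of the 8 genes. Crossed numbers in EpiSC against ESC gave 1398 genes, against 1288 with the block as numbered and 0 of the 8 genes in both. Over all genes the counts moved more: 863 passed in rsEpiSC E6.5 against EpiSC (242 to 1911 over the alternatives), 858 in rsEpiSC E5.75 against EpiSC (318 to 1567), 1396 in EpiSC against ESC (558 to 1614), 1988 in rsEpiSC E6.5 against ESC (835 to 2703), 2282 in rsEpiSC E5.75 against ESC (1027 to 2762), 2772 in rsEpiSC E6.5 against epiblast E6.5 (553 to 3863), 4768 in rsEpiSC E5.75 against epiblast E5.75 (1627 to 5504), 5321 in EpiSC against epiblast E5.75 (2316 to 6261) and 4762 in ESC against epiblast E5.75 (1261 to 5465). Between stages 19 genes passed in rsEpiSC (3 to 257) and 5 in epiblast (0 to 155), and 2 in their difference (0 to 7).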

Other observations

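Tbx3, a transcription factor gene that is both a BMP target and part of the naive pluripotency network, had 4.41 and 4.51 in EpiSC, against 9.90 and 10.41 in ESC. It differed by -5.69 in EpiSC (adjusted p 1.87e-06). This was not particular to EpiSC: its mean was 4.44 in rsEpiSC E6.5, 4.35 in rsEpiSC E5.75 and 4.46 in epiblast E5.75. Eng, which encodes the co-receptor endoglin, had 4.07 and 4.21 in EpiSC, against 8.26 and 7.06 in ESC, and differed by -3.52 (adjusted p 0.000226). Its mean was also low in rsEpiSC E6.5 (4.65), rsEpiSC E5.75 (4.75) and epiblast E5.75 (4.27). The EpiSC signals of both genes lay near the median of all deposited values, 4.21, so the sizes of these differences are uncertain. Hey1, a target shared with Notch signalling, ran the other way: it had 5.28 and 5.43 in ESC, against 6.50 and 7.52 in epiblast E5.75, and differed by -1.66 (adjusted p 0.00494). Hey1 also rose in rsEpiSC E5.75 against ESC, by 1.63 (adjusted p 0.00742), but did not pass in EpiSC against ESC, at 1.11 (0.0748), or in rsEpiSC E6.5 against ESC, at 1.15 (0.0513). The calls of Tbx3 and Eng in EpiSC against ESC and of Hey1 in ESC against epiblast E5.75 held in all 12 fits without an array. Gata2, a further target, had 5.22 and 7.74 in ESC, so its replicates spanned more than Id1, Id2 and Bmp4 did, and here the second array was the higher.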
